A study of Mus musculus with 6 samples.

Results

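The genes described here are 26 receptor subunits, scaffolds and trafficking factors of synapses that use GABA or glycine, the inhibitory transmitters of the spinal cord. They were taken by gene symbol from a fixed list of 26 names, all of which were found among the 56859 genes of the count table. The list holds 15 subunits of GABA-A receptors, the 2 subunits of the GABA-B receptor, 5 subunits of glycine receptors and 4 proteins that gather these receptors at the synapse or move them to the surface. It does not hold every gene of these families, so shares given below are shares among the listed genes.

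RNA was sequenced from spinal cord tissue of wild-type mice 6 weeks after contusion at thoracic level 10. In the injury + AZ876 group (n = 3), mice were given AZ876 after the contusion, at 5 mg/kg by intraperitoneal injection once a day for 1 week; the compound activates liver X receptors, nuclear receptors of cholesterol metabolism. The injury group (n = 3) had the same contusion, and the labels' protocols say that controls were injected with the same solvent, a cyclodextrin saline with DMSO. All 6 libraries carry the same batch label. No uninjured group is part of the comparison, and neither the age or sex of the mice nor whether each library came from its own animal is stated in the labels used here.

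GABA-A and glycine receptors are pentameric chloride channels that open when their transmitter binds, and the subunits in a pentamer set where it sits and how it responds. GABA-B receptors are dimers that act more slowly through G proteins. In the spinal cord these receptors restrain motor neurons and filter sensory input in the dorsal horn, and gephyrin anchors many of them below inhibitory terminals.

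Levels were compared between injured cords given AZ876 and those of the injury group to ask whether receptor makeup at 6 weeks differed after the treatment. None of the listed genes passed the test, which was edgeR's quasi-likelihood test with p-values adjusted by Benjamini-Hochberg over all genes. The estimates were unequal among the subunits. The 6 lowest were for the GABA-A subunit genes Gabrd, Gabra5, Gabrg3 and Gabrb2, the adult glycine receptor subunit gene Glra1 and the GABA-B gene Gabbr2, with fitted levels 0.427 to 0.568 times those of the injury group. The individual libraries of the groups overlapped for Gabra5, Gabrg3, Gabrb2 and Gabbr2. Estimates above 1 were 1.20 times for Gabre, 1.18 times for Gabarap and 1.04 to 1.14 times for Gabra2, Gabra4, Gabrb1 and Gabrg1, which lie together on chromosome 5.

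Of the 26 genes, 22 had enough counts to be tested and 4 (Gabra6, Gabrp, Gabrr1 and Glra4) did not. Of the 22, 0 passed an adjusted p of 0.05, as did 0 of all 17599 genes tested (0%). At an unadjusted p under 0.05, 4 of the 22 were lower with AZ876 (Gabra5, Gabrd, Gabbr1 and Glra1) and 0 were higher. That is 18.2% of the tested members, where 6.74% of all genes were lower and 7.98% higher by the same rule. A negative log2 fold change was seen in 16 of 22 members, or 72.7%, against 49.5% of all genes, and the median was −0.41, against 0.00 for all genes tested. At an adjusted p under 0.05, DESeq2 called 126 genes higher and 51 lower (1.01% of all genes) and limma-voom called 0 (0%), with 0 members called by either. Of the members, 5 by DESeq2 (8.21% of all genes) and 6 by limma-voom (7.88%) were lower, and 0 were higher by either, at an unadjusted p under 0.05. These counts depended on AZ876 replicate 1: without it 15 members were lower at an unadjusted p under 0.05 (13.8% of all genes were), Gabarap was higher (11.6% of all genes), and Gabra3 and Gabra5 passed with adjusted p-values of 0.0444 each, where 1.64% of all genes were called lower. Without injury replicate 3, 8 were lower (9.98% of all genes), and without any 1 of the remaining libraries only Glra1 was (2.26% and 2.29% of all genes without AZ876 replicates 2 and 3, and 2.79% and 3.81% without injury replicates 1 and 2).

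**Figure D1:**
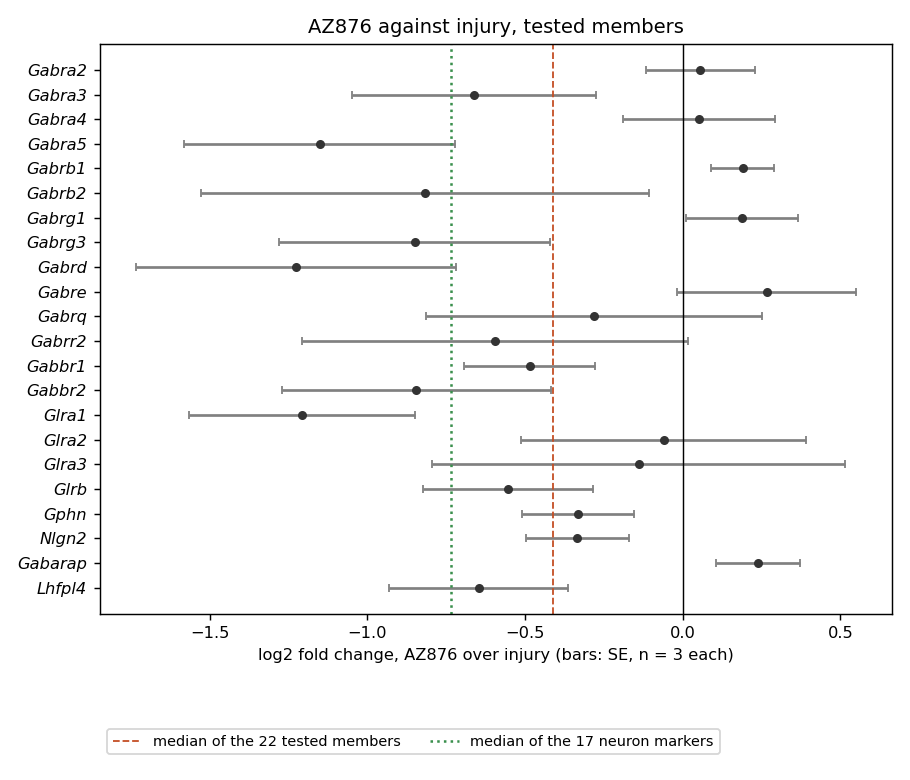
Log2 fold change of AZ876 over injury for each of the 22 tested members, with SE bars (n = 3 each), in the order of the subunit classes. The points run from −1.23 for Gabrd to 0.27 for Gabre; the dashed line marks the median of the members (−0.41) and the dotted line that of 17 neuron markers (−0.74).

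The promoters of 4 members are shown, chosen by their estimates, though none passed the adjusted test with all 6 libraries. Gabra5 and Gabbr1 were lower with AZ876 at an unadjusted p under 0.05, Lhfpl4 had a lower mean, and Gabrb1 was higher in each AZ876 library. Glra1 and Gabrd, also lower at that p, had no promoter window. Each promoter shown is the 250 bases before a RefSeq transcription start on GRCm38.p6, read in the direction of the gene, with the GC box GGGCGG or its complement in capitals. Gabra5 (chr7:57510060-57510309, minus strand) and Gabrb1 (chr5:71657671-71657920, plus strand) hold none, Gabbr1 (chr17:37045716-37045965, plus strand) holds 2 and Lhfpl4 (chr6:113195385-113195634, minus strand) holds 1.
Gabra5: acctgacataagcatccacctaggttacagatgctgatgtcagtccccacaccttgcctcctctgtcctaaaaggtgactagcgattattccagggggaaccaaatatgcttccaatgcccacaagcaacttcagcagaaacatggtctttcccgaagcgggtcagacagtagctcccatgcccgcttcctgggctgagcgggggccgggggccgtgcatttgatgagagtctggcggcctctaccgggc
Gabbr1: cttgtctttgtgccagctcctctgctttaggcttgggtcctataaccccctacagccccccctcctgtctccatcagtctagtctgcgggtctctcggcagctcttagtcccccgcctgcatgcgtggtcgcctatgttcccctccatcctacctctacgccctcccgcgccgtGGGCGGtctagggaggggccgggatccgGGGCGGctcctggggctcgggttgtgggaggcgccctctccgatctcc
Lhfpl4: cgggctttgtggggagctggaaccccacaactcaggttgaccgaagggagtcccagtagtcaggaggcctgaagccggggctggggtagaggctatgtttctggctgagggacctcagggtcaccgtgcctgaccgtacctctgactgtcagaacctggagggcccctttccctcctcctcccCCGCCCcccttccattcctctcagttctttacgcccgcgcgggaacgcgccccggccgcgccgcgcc
Gabrb1: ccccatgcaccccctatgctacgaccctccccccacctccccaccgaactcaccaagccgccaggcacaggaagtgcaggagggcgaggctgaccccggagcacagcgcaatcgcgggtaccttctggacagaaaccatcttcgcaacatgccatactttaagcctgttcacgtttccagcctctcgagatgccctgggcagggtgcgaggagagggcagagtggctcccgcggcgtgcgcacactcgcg

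Promoters were found for 24 of the 26 genes, 28 windows in all, since some have several starts. Letters were searched on both strands. The GC box was in 15 of these 28 windows (53.6%) and in 32.7% of 32851 promoter windows of the same length. The liver X receptor element, a direct repeat of AGGTCA spaced by 4 bases, was in 0 of the 28 and in 0.0152% of all windows, and its repeat unit AGGTCA, which lies within that element, was in 0 of the 28 and in 14% of all. The cyclic AMP element TGACGTCA was in 0 of the 28 and in 1.55% of all. Matches are letters in a window and do not show binding.

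The alpha subunits form the GABA site with a beta subunit and set the receptor's place in the circuit. Gabra5, listed as ENSMUSG00000055078 (chromosome 7, 57057420 to 57159807, minus strand; the table names no build), encodes a subunit of extrasynaptic receptors that carry tonic inhibition. It had 20.7, 7.31 and 7.46 CPM (counts scaled to the library's size) in AZ876 replicates 1 to 3, against 30.8, 29.9 and 17.8 CPM in injury replicates 1 to 3. AZ876 replicate 1 lay above injury replicate 3, so the groups overlapped, and AZ876 replicates 2 and 3 were the lowest of the 6 libraries. The log2 fold change was −1.15 ± 0.43 (SE), with a 95% confidence interval of −2.15 to −0.15 and an edgeR adjusted p of 0.330. The exact permutation p was 0.2, where 0.1 is the smallest that 3 against 3 libraries allow, and all permutation tests here are two-sided.

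Gabra3 encodes an alpha subunit found at dorsal horn and brainstem synapses, and per kilobase of exon it was the highest of the listed alpha genes. It had 73.0, 28.7 and 27.4 CPM with AZ876 and 79.7, 73.8 and 50.5 CPM with injury. Its groups overlapped through AZ876 replicate 1, and its log2 fold change of −0.66 ± 0.39 had an edgeR adjusted p of 0.410. Without that library the log2 fold change was −1.28 for Gabra3 and −1.83 for Gabra5, and both passed.

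Gabra2 encodes the alpha subunit through which benzodiazepines reduce pain signalling in the mouse dorsal horn. Its levels were 54.3, 46.9 and 36.4 CPM with AZ876, against 42.5, 39.7 and 50.2 CPM with injury. The libraries of the groups were interleaved, and the log2 fold change was 0.06 ± 0.17 with a 95% confidence interval of −0.35 to 0.46. Gabra4, whose product often joins the delta subunit outside synapses, had 17.2, 9.42 and 11.8 CPM with AZ876 and 12.6, 10.9 and 13.6 CPM with injury. Its interval of −0.51 to 0.61 likewise covers changes in either direction, and both genes changed sign when AZ876 replicate 1 or injury replicate 2 was left out. Gabra6, a gene of cerebellar granule cells, had 0 counts in every library, which allows a level of up to 0.0297 CPM (3 counts over the 6 libraries, counting error only).

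The makeup of the alpha genes was described as shares of their summed CPM per kilobase of exon in GENCODE M21. Gabra5 made up 16.4% ± 2.85 of the listed alpha level with AZ876 and 25.6% ± 3.43 with injury (SD, n = 3 each). Its shares were 19.6%, 14.1% and 15.5% with AZ876, all below the 27.0%, 28.0% and 21.7% with injury. Gabra2 made up 20.0%, 35.2% and 29.4% with AZ876 and 14.5%, 14.5% and 23.7% with injury, and these overlapped. Gabra3 held the largest share in each library, between 41.9% and 52.5% with AZ876 and between 46.5% and 53.0% with injury. These shares were examined after the levels were known and carry no test.

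**Figure D2:**
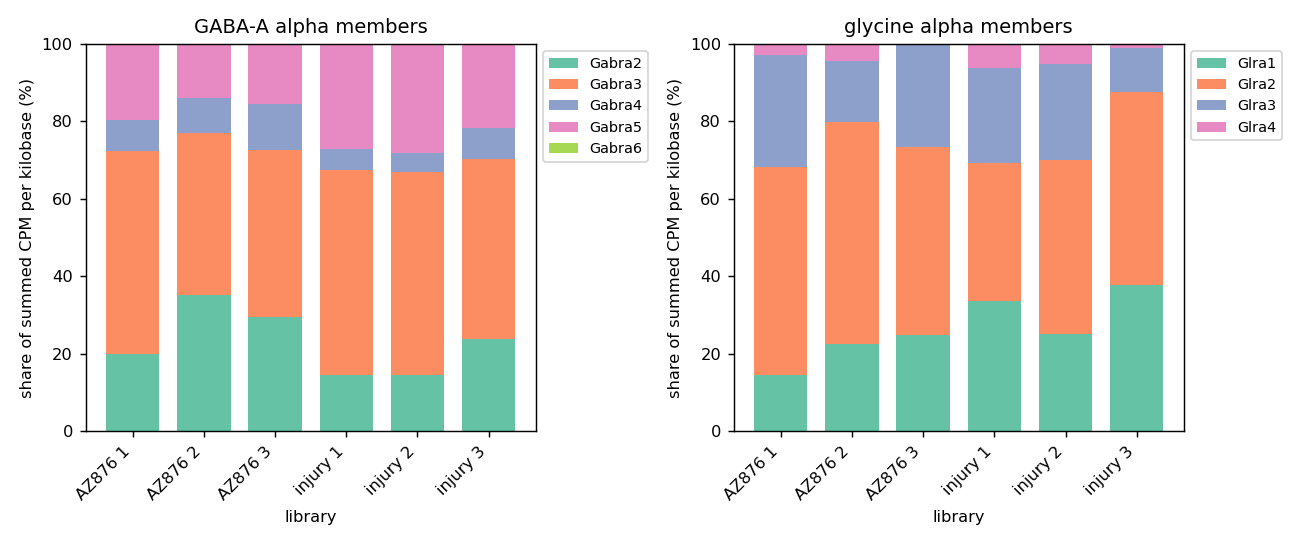
Share of each gene in the summed CPM per kilobase of the listed GABA-A alpha genes (left) and glycine receptor alpha genes (right), 1 bar per library. Gabra5 takes 14.1% to 19.6% in the AZ876 libraries and 21.7% to 28.0% in the injury libraries, and Glra1 takes 14.6% to 24.8% and 25.2% to 37.8%.

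The beta subunits complete the GABA site and bind the trafficking machinery. Gabrb1 (chromosome 5 from 71815456 to 72306380, plus strand, in the table's build) is also expressed by astrocytes in mice. It had 76.3, 76.3 and 79.3 CPM with AZ876, against 65.1, 66.8 and 71.4 CPM with injury. All 3 AZ876 libraries exceeded all 3 injury libraries, which held for 1 tested member of 22 (4.55%) and for 10.2% of all genes. The log2 fold change was 0.19 ± 0.10, with an edgeR adjusted p of 0.378 and an exact permutation p of 0.1. Gabrb2, the beta subunit gene of many mature brain receptors, was far lower at 2.53, 0.984 and 0.408 CPM with AZ876 and 3.47, 2.52 and 0.780 CPM with injury. It rested on 7 to 71 counts a library, and its interval of −2.47 to 0.83 was wide. Its log2 fold change of −0.82 was −1.73 without AZ876 replicate 1 and −0.37 without either AZ876 replicate 3 or injury replicate 1.

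The gamma subunits hold receptors at the synapse and shape benzodiazepine binding. Gabrg1, which is expressed by astrocytes and some neurons, had 36.0, 34.1 and 29.7 CPM with AZ876 and 22.7, 30.3 and 34.7 CPM with injury. Gabrg3 is a rarer gamma subunit gene and had 9.78, 4.22 and 4.08 CPM with AZ876, against 12.6, 13.8 and 6.11 CPM with injury. The libraries overlapped for both, with log2 fold changes of 0.19 ± 0.18 for Gabrg1 and −0.85 ± 0.43 for Gabrg3. The ratio of Gabrg1 to Gabrg3 CPM was 3.69, 8.10 and 7.29 in the AZ876 libraries and 1.81, 2.20 and 5.67 in the injury libraries, so AZ876 replicate 1 and injury replicate 3 lay between the others.

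Grouped by position, the listed genes of the chromosome 5 cluster (Gabrg1, Gabra2, Gabra4 and Gabrb1, from 70908390 to 72306380) had log2 fold changes of 0.05 to 0.19. Gabrg3 and Gabra5, neighbours on chromosome 7, were at −0.85 and −1.15. On the X chromosome Gabre, Gabra3 and Gabrq, which lie within 586.6 kb, were at 0.27, −0.66 and −0.28. The difference between clusters was not tested. Within libraries, the ratio of Gabra2 to Gabra5 CPM was 2.63, 6.42 and 4.88 with AZ876 and 1.38, 1.33 and 2.82 with injury, and these overlapped.

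The remaining GABA-A subunits were expressed at low levels. Gabrd encodes the delta subunit of extrasynaptic receptors that bind neurosteroids. It had 0.684, 0.422 and 0.175 CPM with AZ876, from 10, 6 and 3 counts, against 1.03, 1.21 and 0.715 CPM with injury, from 21, 23 and 11 counts. Each AZ876 library lay below each injury library, as for 8.64% of all genes. The margin was narrow between AZ876 replicate 1 (10 counts) and injury replicate 3 (11 counts). The log2 fold change was −1.23 ± 0.51 with an edgeR adjusted p of 0.334 and an exact permutation p of 0.1.

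Gabre, which encodes the epsilon subunit, had 4.58, 3.86 and 3.38 CPM with AZ876 and 3.13, 4.25 and 2.41 CPM with injury. Gabrq, which encodes the theta subunit, had 6.98, 1.76 and 2.33 CPM with AZ876 and 5.43, 5.20 and 2.73 CPM with injury. Both overlapped between groups. Gabrr2, a rho subunit gene best known from the retina, ranged from 0.773 to 2.86 CPM with AZ876 and from 1.66 to 5.78 CPM with injury, where injury replicate 2 alone exceeded 3 CPM. Its log2 fold change of −0.60 became 0.19 without that library. Gabrr1, also a rho gene, had 1, 0 and 2 counts with AZ876 and 1, 7 and 3 with injury. Gabrp, an epithelial subunit gene, had 1 count in all, in injury replicate 1.

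**Figure D3:**
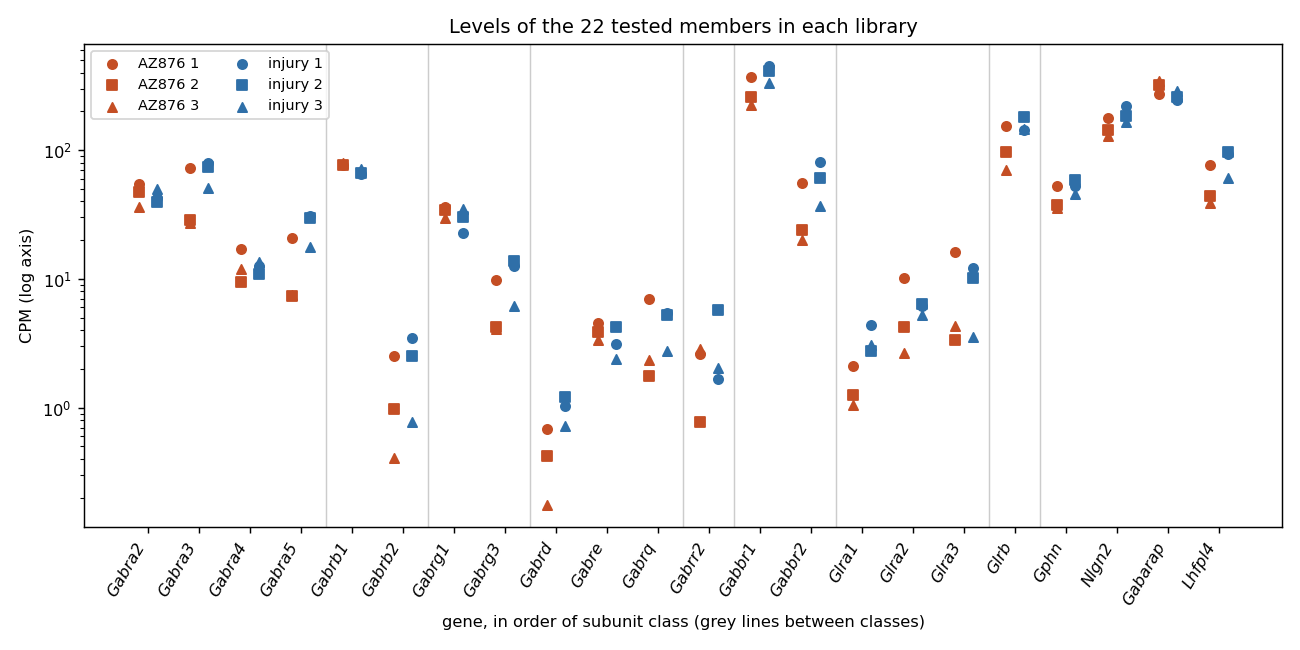
CPM on a log axis for the 22 tested members in each library, AZ876 in orange and injury in blue, with grey lines between subunit classes. AZ876 replicate 1 (orange circles) is the highest AZ876 library for 19 of 22 genes, and levels span from 0.175 CPM for Gabrd to 450.4 CPM for Gabbr1.

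In the GABA-B receptor, the Gabbr1 product binds GABA and the Gabbr2 product brings the dimer to the surface and couples it to G proteins. Gabbr1 had 371.7, 259.3 and 225.7 CPM with AZ876, against 450.4, 414.3 and 334.1 CPM with injury. AZ876 replicate 1 lay above injury replicate 3. The log2 fold change was −0.48 ± 0.21, with a 95% confidence interval of −0.97 to −0.0022 and an edgeR adjusted p of 0.339.

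Gabbr2 had 55.9, 24.0 and 20.0 CPM with AZ876 and 81.0, 61.1 and 36.9 CPM with injury. It showed the same order of libraries within each group as Gabbr1, with a log2 fold change of −0.84 ± 0.43 and an edgeR adjusted p of 0.368, and the log2 fold change was −1.44 without AZ876 replicate 1. Per kilobase of exon, Gabbr1 stood at 36.8 CPM with AZ876 and 51.5 CPM with injury, above Gabbr2 at 4.98 and 8.92 CPM, in means of 3 libraries.

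Glycine receptors of the adult cord combine an alpha subunit, which binds glycine, with the beta subunit, which holds gephyrin. Glra1 (ENSMUSG00000000263, chromosome 11 from 55405064 to 55499024, minus strand, in the table's build) is the main adult alpha gene, and its loss causes startle disease. It had 2.12, 1.26 and 1.05 CPM with AZ876, from 31, 18 and 18 counts, against 4.40, 2.73 and 3.06 CPM with injury, from 90, 52 and 47 counts. Each AZ876 library was below each injury library, as for 2 of 22 members (9.09%, Glra1 and Gabrd) and 8.64% of all genes. The log2 fold change was −1.21 ± 0.36, with a 95% confidence interval of −2.04 to −0.38, an edgeR adjusted p of 0.330 and an exact permutation p of 0.1. Leaving out any 1 library kept it between −1.56 and −0.97, with an unadjusted p under 0.05 each time.

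Glra2, the fetal alpha gene, had 10.2, 4.22 and 2.68 CPM with AZ876 and 6.11, 6.35 and 5.27 CPM with injury. Glra3, an alpha gene of the superficial dorsal horn through which prostaglandin E2 relieves inhibition, had 16.1, 3.37 and 4.31 CPM with AZ876 and 12.2, 10.2 and 3.51 CPM with injury. AZ876 replicate 1 was the highest of all 6 libraries for both. Their log2 fold changes were −0.06 ± 0.45 and −0.14 ± 0.66, and both became positive without AZ876 replicate 2 or AZ876 replicate 3. Glra4 had 5, 3 and 0 counts with AZ876 and 14, 9 and 1 with injury, too few to be tested.

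Per kilobase, Glra1 made up 20.6% ± 5.35 of the alpha gene level with AZ876 and 32.2% ± 6.42 with injury (SD, n = 3 each). Its shares of 14.6%, 22.5% and 24.8% with AZ876 were below the 33.6%, 25.2% and 37.8% with injury, though AZ876 replicate 3 and injury replicate 2 differed by little. Glra2, not Glra1, held the largest share of the listed glycine alpha genes in each library. It made up 53.7%, 57.4% and 48.5% with AZ876 and 35.7%, 44.9% and 49.9% with injury. Glrb had 154.0, 96.2 and 70.0 CPM with AZ876 and 144.1, 181.0 and 145.1 CPM with injury, a log2 fold change of −0.55 ± 0.27 with an edgeR adjusted p of 0.359. AZ876 replicate 1 lay among the injury libraries. The ratio of Glrb to Glra1 CPM was 72.6, 76.1 and 66.7 with AZ876, above the 32.7, 66.3 and 47.5 with injury in each case, by a narrow margin for injury replicate 2.

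Among the scaffolds, Gphn encodes gephyrin, the lattice below glycine and GABA-A receptors, which also serves molybdenum cofactor synthesis outside neurons. It had 52.4, 37.5 and 35.7 CPM with AZ876 and 52.9, 59.1 and 45.8 CPM with injury. Nlgn2, the adhesion protein of inhibitory synapses, had 178.0, 143.3 and 129.0 CPM with AZ876 and 219.8, 183.2 and 164.5 CPM with injury. Their log2 fold changes were alike, −0.33 ± 0.18 and −0.33 ± 0.16.

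Lhfpl4 encodes a small membrane protein that ties GABA-A receptors to neuroligin-2, the Nlgn2 product. It had 76.7, 44.3 and 38.9 CPM with AZ876 and 92.7, 96.4 and 61.0 CPM with injury, a log2 fold change of −0.65 ± 0.28 with an edgeR adjusted p of 0.343. For these 3 genes AZ876 replicate 1 lay inside the injury range and AZ876 replicates 2 and 3 below it. Gabarap, an autophagy-related adaptor of GABA-A receptors made by most cell types, had the opposite sign. Its levels were 270.3, 322.7 and 344.9 CPM with AZ876 and 246.5, 259.5 and 289.4 CPM with injury, with overlap and a log2 fold change of 0.24 ± 0.13. The log2 fold change of 0.24 for Gabarap and −0.33 for Gphn kept their signs under each alternative run.

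Most of these genes shared their highest AZ876 library and their lowest injury library. AZ876 replicate 1 was the highest AZ876 library for 19 of 22 tested members, compared with 6522 of 16271 genes with a mean of at least 1 CPM. Injury replicate 3 was the lowest injury library for 14 of 22, compared with 5854 of 16271. In the neuron marker list too, AZ876 replicate 1 was the highest AZ876 library and injury replicate 3 the lowest injury library: the mean log2 CPM was 8.08, 7.39 and 6.95 in AZ876 replicates 1 to 3, against 8.44, 8.33 and 7.99 in injury replicates 1 to 3.

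**Figure D4:**
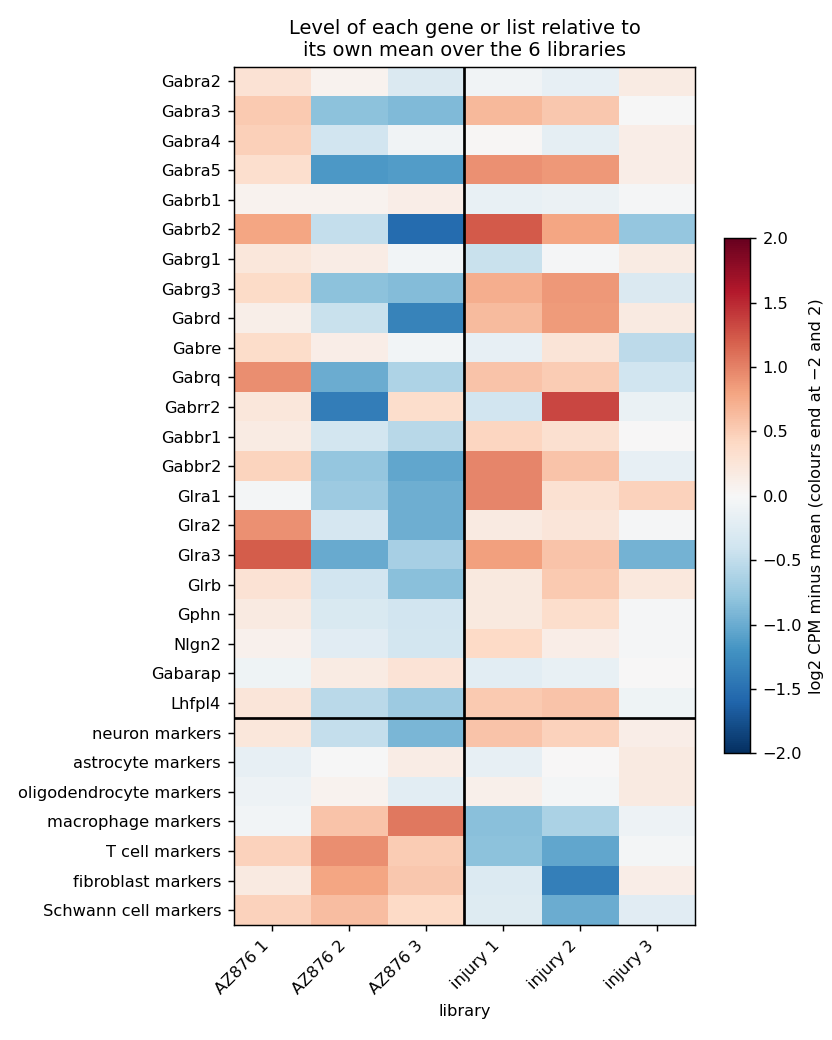
Level of each tested member, and of 7 marker lists below the black line, as log2 CPM minus its mean over the 6 libraries (red higher, blue lower). Gabra5, Gabbr2, Lhfpl4 and the neuron markers are blue in AZ876 replicates 2 and 3 and red in injury replicates 1 and 2, while Gabrb1 and Gabarap show little colour.

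The log2 fold change was below 0 for all 17 neuron markers (median −0.74), 10 of them at an unadjusted p under 0.05, where 49.5% of all genes were below 0 and 6.74% were so at that p. Their summed level was 2989 to 6337 CPM with AZ876 and 6787 to 8657 CPM with injury, and 0 of the 17 were at 0. CPM is scaled to the library's size, so it gives neither the number of neurons nor the RNA per neuron. Fewer neurons, less RNA per neuron and more RNA from other cells cannot be told apart in tissue RNA. Astrocyte markers, 9 genes, had a median of −0.08 and ranged from −0.53 to 0.51, with 2 lower and 0 higher at an unadjusted p under 0.05. Each AZ876 library lay below each injury library for 3 of the 9, as for 8.64% of all genes. Their summed levels were 12568 to 18486 CPM with AZ876 and 13278 to 17368 CPM with injury. Oligodendrocyte markers summed to 21126 to 26197 CPM with AZ876 and 27036 to 29365 CPM with injury. Estimates were above 0 for all tested markers of T cells (6 genes, median log2 fold change 1.51), fibroblasts (6, 0.96), macrophages (7, 0.88) and Schwann cells (5, 0.79), and none of these passed the adjusted test. Their summed levels were 15.5 to 22.1, 2093 to 3110, 1618 to 4696 and 1780 to 2157 CPM with AZ876, against 5.41 to 11.3, 613.5 to 1877, 1013 to 2261 and 644.0 to 1453 CPM with injury. None of the markers of these 4 lists was at 0. All 7 motor neuron markers had an estimate below 0 (median log2 fold change −0.53), 2 of them at an unadjusted p under 0.05. Of 7 microglia markers, 6 were above 0 (median 0.16) and 1 was lower at that p. Of 5 endothelial markers 4 were above 0 (median 0.12), 1 of them at that p, and of 5 oligodendrocyte precursor markers 3 were (median 0.09). Of 6 markers of sensory ganglion neurons, 1 was tested (log2 fold change 0.33) and 2 (Mrgprd and Prdm12) were at 0 in each library. The part of these cell types in the values of the receptor genes was not tested.

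Set against the neuron markers of the same library, the listed genes were on average higher with AZ876. The markers had a median log2 fold change of −0.74, against 0.00 for all genes tested. A gene with unchanged CPM therefore comes out higher by this measure. Over all genes tested, mean log2 CPM was 3.98, 3.96 and 3.95 with AZ876 and 3.96, 3.91 and 3.95 with injury. The mean log2 CPM of the 22 members minus that of the 17 markers was −3.52, −3.67 and −3.32 with AZ876, above the −3.87, −3.73 and −3.88 with injury. Glrb lay at nearly the same distance in all libraries but injury replicate 1, at −0.82, −0.80 and −0.82 with AZ876 and −1.27, −0.83 and −0.81 with injury. Lhfpl4 lay at −1.82, −1.91 and −1.66 with AZ876 and −1.90, −1.74 and −2.06 with injury, with overlap. Gabbr1 was above its injury values in each AZ876 library, at 0.45, 0.63 and 0.87 against 0.38, 0.36 and 0.39. Gabra5 had a lower mean by this measure too, −3.71, −4.49 and −4.03 with AZ876 and −3.49, −3.43 and −3.83 with injury, with overlap. Gabrd, at −8.40, −8.27 and −8.72 with AZ876 and −8.24, −7.92 and −8.26 with injury, lay below its injury values in each AZ876 library, by a narrow margin between AZ876 replicate 2 (6 counts) and injury replicate 3 (11 counts). Glra1, whose CPM did not overlap, overlapped by this measure, at −6.92, −6.92 and −6.73 with AZ876 and −6.26, −6.82 and −6.33 with injury. These differences describe the libraries and carry no test.

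**Figure D5:**
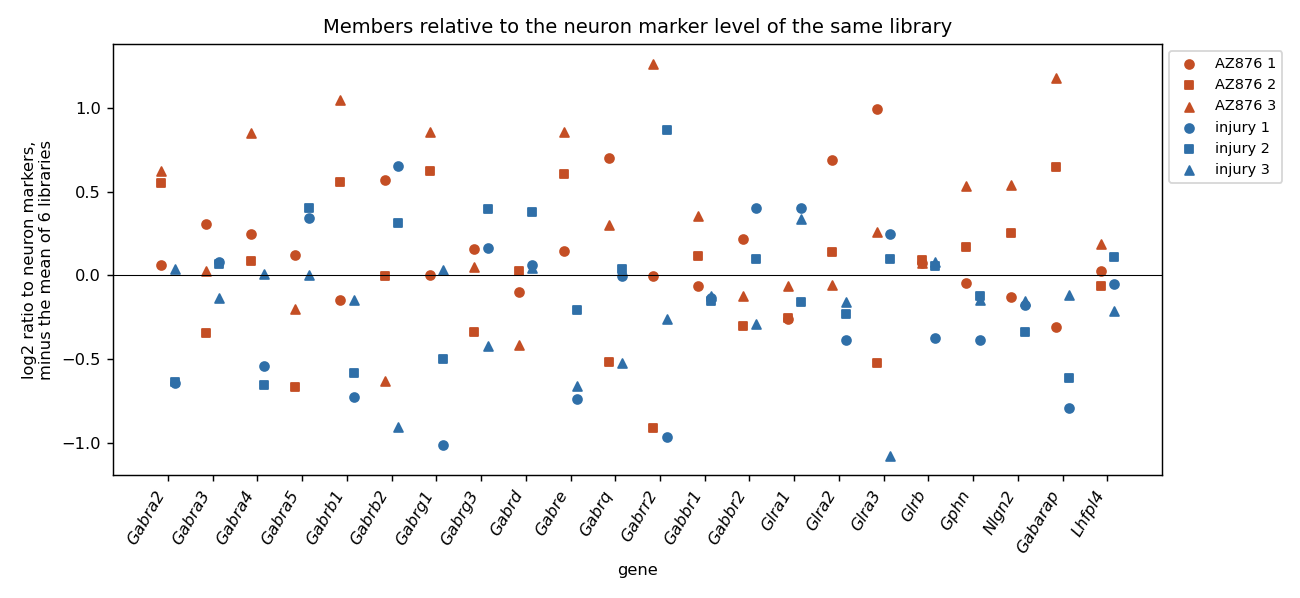
Log2 CPM of each member minus the mean log2 CPM of 17 neuron markers in the same library, centred on the mean over the 6 libraries, AZ876 in orange and injury in blue. Glrb stays close to 0 in all libraries but injury replicate 1. Gabrb1, Gabre and Gabra2 lie higher in all 3 AZ876 libraries than in all 3 injury libraries, as do Gabra4, Gabbr1, Glra2, Gphn and Nlgn2. Gabra5 is among the members with a lower mean with AZ876. The markers were lower with AZ876, so a gene with unchanged CPM also lies higher, and the share of all genes that did was not counted.

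Other genes of these synapses, from lists chosen by function, had estimates mostly below 0, where 49.5% of all genes were below 0. Their counts at an unadjusted p under 0.05 stand beside 6.74% of all genes lower and 7.98% higher. Of 26 partners of inhibitory synapses, 23 had an estimate below 0 and the median log2 fold change was −0.34, with 7 lower and 1 higher at an unadjusted p under 0.05. Dag1, the dystroglycan gene, was at 231.3 ± 12.2 CPM with AZ876 and 161.4 ± 35.6 CPM with injury, and Plcl1, a regulator of GABA-A receptor trafficking, at 53.2 ± 6.46 and 70.7 ± 9.59 CPM (SD, n = 3 each). Of 6 tested GABA-B auxiliary subunit and channel genes, 4 had an estimate below 0 and the median log2 fold change was −0.40. At that p 0 were lower and 1 was higher, Kctd12b, with 12.3 ± 1.51 CPM with AZ876 and 8.59 ± 1.68 CPM with injury. Kctd12, which encodes an auxiliary subunit of the GABA-B receptor, was at 116.6 ± 14.7 and 83.5 ± 23.6 CPM.

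On the presynaptic side, 8 of 9 genes of GABA and glycine synthesis, release and uptake had an estimate below 0 (median log2 fold change −0.50), and 5 were lower and 1 higher at an unadjusted p under 0.05. Slc32a1, the vesicular transporter that loads both transmitters, was at 49.7 ± 23.1 CPM with AZ876 and 97.6 ± 9.11 CPM with injury. Slc6a13, a GABA transporter gene of meninges and other barrier cells, had the opposite direction at 74.2 ± 24.0 and 36.1 ± 11.7 CPM. Of the chloride transporters that set what an open channel does to a neuron, Slc12a5, the neuronal chloride exporter, was at 176.0 ± 105.0 CPM with AZ876 and 335.2 ± 90.7 CPM with injury. Slc12a2, a chloride importer of many cell types, was at 200.6 ± 20.0 and 207.9 ± 21.4 CPM. Among glutamate receptors and scaffolds, 32 of 33 were below 0 (median log2 fold change −0.55), 8 of them at that p. Grin2c, an NMDA receptor subunit gene, was at 9.98 ± 4.10 and 21.1 ± 5.41 CPM, and Gria4, an AMPA receptor subunit gene, at 61.5 ± 22.3 and 97.9 ± 10.6 CPM. None of these genes passed over all genes in edgeR, and whether the listed receptor genes differed from these lists was not tested.

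Some counts could hold reads of a neighbour, because the strand setting of the counting is not given in the sources used here. Gabra4 and Gabrb1 lie head to head and share 196 bases, the span of Gabra5 (2006 counts) overlaps a protein-coding gene of 5904 counts on the opposite strand, and opposite-strand RNAs of 23 counts for Glra1 (8.98% of its own), 688 for Gphn (14.3%) and 172 for Glra4 overlap those genes.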

How the data were processed

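The data are deposited raw read counts per gene in 1 table with 1 column per library, matched through the names given in GEO's labels. Reads were handled with fastp 0.23.0 and HISAT2 2.1.0, per the submitters' processing notes. Which program counted them, with which strand setting, build and annotation, is not given in the sources used here. Of 57010 rows, 148 symbols stood on several rows with identical counts, and 1 row of each was kept.

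Libraries held 14067649 to 20211175 counts. Genes passing edgeR's filterByExpr (minimum count 10) were scaled by TMM and tested with edgeR 4.0.16 (R 4.3.3), robust quasi-likelihood, AZ876 against injury, Benjamini-Hochberg adjusted, with 4 residual degrees of freedom. The SE is the log2 fold change over the root of F. Log2 CPM used a prior count of 2. DESeq2 1.42.0 and limma-voom (limma 3.58.1), other scalings, no filter, a replicate block and leaving out each library were alternatives, and the fits were tested on simulated data. Exon lengths came from GENCODE M21, whose build may differ from the table's, and promoters from RefSeq on GRCm38.p6. The table's positions are on another build than the promoters, so the positions given for each cannot be compared. For example, the window before Gabra2, a minus-strand gene, is 71095850 to 71096099, below the table's span of 71114940 to 71253192. All members are named. Of other lists, the 2 genes of smallest p are. Members and lists were chosen with earlier results of these data known. P-values measure the spread between these libraries, which may be technical.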

Additional observations from a re-analysis of the deposited data

How the results depend on the processing

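The sign of the log2 fold change was kept under all 12 alternatives by 16 of the 22 tested members, and 0 members changed sign under another scaling. Leaving out 1 library at a time gave log2 fold changes of −0.086 to 0.20 for Gabra2, −0.22 to 0.22 for Gabra4, −1.12 to 0.046 for Gabrq, −0.91 to 0.19 for Gabrr2, −0.79 to 0.29 for Glra2 and −1.18 to 0.22 for Glra3. The sign changed for Gabra2 and Gabra4 without AZ876 replicate 1 or injury replicate 2, for Gabrq without AZ876 replicate 2, for Gabrr2 without injury replicate 2, for Glra2 without AZ876 replicate 2 or 3, and for Glra3 without AZ876 replicate 2 or 3 or injury replicate 1. The cause was not tested.

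With 1 library left out at a time, the members called lower at an adjusted p under 0.05 ranged from 0 to 2, those lower at an unadjusted p under 0.05 from 1 to 15, those higher from 0 to 1, and their median log2 fold change from −0.85 to −0.28. The genes called over the whole table ranged from 0 to 64 higher and from 0 to 299 lower, both highest without AZ876 replicate 1. Over all genes DESeq2 called 126 higher and 51 lower, and edgeR without the low-count filter called 6 higher. Same-numbered libraries had correlations of their deviations from the group means of 0.39, −0.14 and 0.32. Differently numbered libraries had −0.49 to 0.34. With 3 libraries a group these values cannot settle whether the numbers pair the samples. With the replicate block, 11 members were lower at an unadjusted p under 0.05 (11.3% of all genes), 0 members passed an adjusted p of 0.05, and 2 genes of the table were called higher. The mean of the members relative to the neuron markers, 0.32 higher with AZ876 on the log2 scale, was 0.41 against summed marker CPM and 0.24 to 0.41 with 1 library left out. The markers were lower with AZ876, so this value does not mean that the members were higher. Low counts limit Gabrb2, Gabrd and Glra1.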
